A study of Sus scrofa with 16 samples.

Results

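Highland Tibetan pigs (TH) were compared with lowland Tibetan pigs (TL) by the methylation peaks of their hearts, as called by MeDIP-seq. The comparison used 8 of the 16 animals of the series, 4 in each group, and 499712 of the 1159046 peaks, which are the TH and TL peaks on chromosomes 1 to 18. Measures of 2 kinds were taken from the lists, namely whether a peak overlapped any peak of the other list, and how many peaks of each group lay over base 250 of each 500 bp window of the genome. Of 4898750 windows, 456176 had at least 1 TH or TL peak over that base. All animals were castrated boars of 6 months of age and of the Tibetan breed. TH pigs were conceived and raised in Linzhi, on the Tibetan Plateau, and TL pigs in Beijing. The TL pigs came from a population moved to the lowland a few years before, so that place and recent breeding history differed together with elevation and cannot be told apart from it. The other 8 animals, highland (YH) and lowland (YL) Yorkshire pigs of the same age and sex, enter below only as a readout at the Tibetan windows.

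In mammals, methyl groups are added mainly to cytosines that are followed by guanine, and methylation of a promoter often goes with low expression of its gene. MeDIP-seq pulls down sheared DNA with an antibody against 5-methylcytosine, so a peak marks a stretch with many methylated cytosines in an animal, and CpG-dense methylated stretches give the strongest peaks. Low oxygen is known to act on heart muscle through the HIF transcription factors, on vessel growth and on the use of fat and glucose as fuel, and the comparison asks where cardiac methylation differed between elevations within one breed. Because whole heart tissue was used, a change in the share of a cell type cannot be told apart from a change within cells, and peaks alone do not allow the tissue to be checked by marker genes.

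Depth overlapped between the groups and was somewhat higher in TH. The uniquely mapped reads per animal ranged from 13.2 to 16.9 M in TH (M, 1000000 reads) and from 12.8 to 16.5 M in TL, with medians of 15.7 and 13.4 M and sums of 61.5 and 56.0 M. The part of depth in the differences below was not tested, apart from the settings with a minimum of tags per M reads and with equal numbers of peaks. The peaks carry no animal names. Since no base lay under more than 4 peaks of a list, each peak over a base was taken to come from another animal. Values of tags, the number of reads in a peak, are therefore given from low to high and not by animal.

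The TH list was the larger, with 258861 peaks on chromosomes 1 to 18 against 240851 in TL. Merged where they overlapped, these made 138293 regions covering 177 Mb in TH and 127939 regions covering 154 Mb in TL. Both lists together covered 228 Mb, of which 103 Mb were shared, giving a ratio of shared to covered bases of 0.451. A typical TH peak was slightly larger in each respect. The median number of tags was 27 in TH and 25 in TL, the median fold enrichment over the local background 8.28 and 7.88, and the median length 992 and 941 bp.

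Most peaks of either group had a counterpart in the other. An overlap of at least 1 bp was found for 73.6% of the TH peaks and 78.5% of the TL peaks, leaving 68422 TH and 51839 TL peaks without one. TH peaks thus made up 56.9% of the peaks without overlap (56.6–57.2%, a 95% Wilson interval for counting error alone). This share depended on how weak peaks were treated. It was 51.5% when a common minimum of tags per M reads was set, and also 51.5% when the lists were cut to equal numbers of peaks by tags.

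Peaks found in 1 group were mainly weak. With each list cut into 4 parts of equal size by tags, 59.7% of the TH peaks with the fewest tags overlapped a TL peak, and this share was 72.5%, 78.9% and 83.2% in the following parts. For TL the corresponding shares were 59.8%, 76.8%, 85.8% and 91.5%. The lists were alike among weak peaks and parted among strong ones, where fewer TH than TL peaks had a counterpart. Peaks without overlap had a median of 21 tags in TH and 18 in TL, against 29 and 27 for the peaks with overlap. They were also shorter, with medians of 846 bp in TH and 758 bp in TL against 1056 and 1008 bp, whereas the fold enrichment was 8.0 against 8.40 in TH and 8.10 against 7.76 in TL.

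The gap among strong peaks was examined further with limits chosen after these values were seen. Of 12402 TH peaks with at least 100 tags, 1805 (14.6%) had no TL peak, whereas of 6614 such TL peaks 374 (5.65%) had no TH peak. Of 7639 TH peaks of at least 3000 bp, 1171 (15.3%) had no TL peak, against 361 of 5514 (6.55%) in TL. These were broad peaks of moderate enrichment. The TH peaks of at least 100 tags without overlap had a median length of 3115 bp and a median fold enrichment of 4.71, which is under the median of the TH list. Such TH peaks with overlap had a low fold enrichment too, with a median of 5.59. In 817 of the 1805 cases (45.3%) the peak also overlapped no other peak of TH, so that it was seen in 1 animal of the 8. In TL this held for 211 of the 374 (56.4%), a larger share. The part that a single library plays in this difference was not tested, since the animals are not named.

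**Figure D1:**
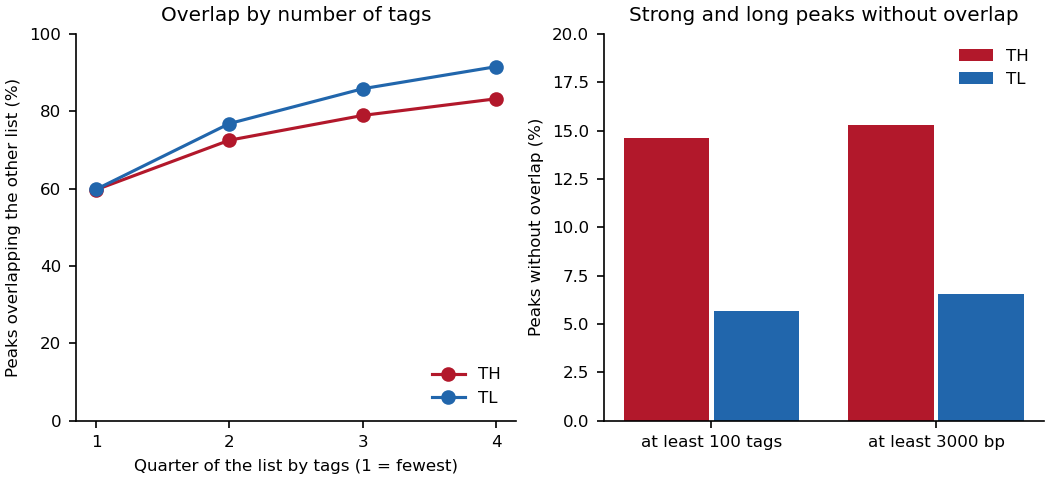
Percent of the peaks of each list that overlapped the other list by at least 1 bp, in 4 parts of equal size from the fewest tags (1) to the most (4) (left), and percent of strong or long peaks without overlap (right), for TH (red) and TL (blue). The curves start together at 59.7% and 59.8% and part to 83.2% in TH and 91.5% in TL, and the TH bars (14.6% and 15.3%) are above the TL bars (5.65% and 6.55%).

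Counted by window, the groups had equal numbers of peaks in 19.5% of the 456176 windows, more TH peaks in 46.0% and more TL peaks in 34.5%. Among unequal windows, 57.1% therefore had more TH peaks. The direction depended on the number of animals. With 1 animal against 0 the TH side held 57.5% of the windows (111936 against 82732), with 2 against 0 65.0% and with 3 against 0 64.7% (6438 against 3505). With 4 against 0 it held 48.1% (473 against 511), with an interval of 45.0–51.2% that includes equal shares.

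Of the pairs that included all 4 animals of a group, 4 against 0 was near equal shares and the others leaned to TL. Each pair of numbers that did not include all 4 animals leaned to TH. The TH side had 42.7% of the windows with 4 against 1 animals (1279 against 1715), 36.6% of those with 4 against 2 and 28.9% of those with 4 against 3. By contrast, it had 60.4% of the windows with 2 against 1, 63.1% with 3 against 1 and 53.4% with 3 against 2. Among windows with at least 3 TH peaks, all 4 animals had a peak in 26.4% (20292 of 76919). This share was 42.7% (29879 of 69935) in TL, 47.2% in YH and 43.1% in YL, so TH stood below the other groups. Its part in the directions above was not tested. The split moved with the choice of peaks. With only the peaks at or above the common median of fold enrichment (8.06), the TH side held 57.4% of the windows with 4 against 0. It held 58.7% of those with 4 against 1, and less than the TL side with 4 against 2 and 4 against 3 (48.1% and 39.2%).

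**Figure D2:**
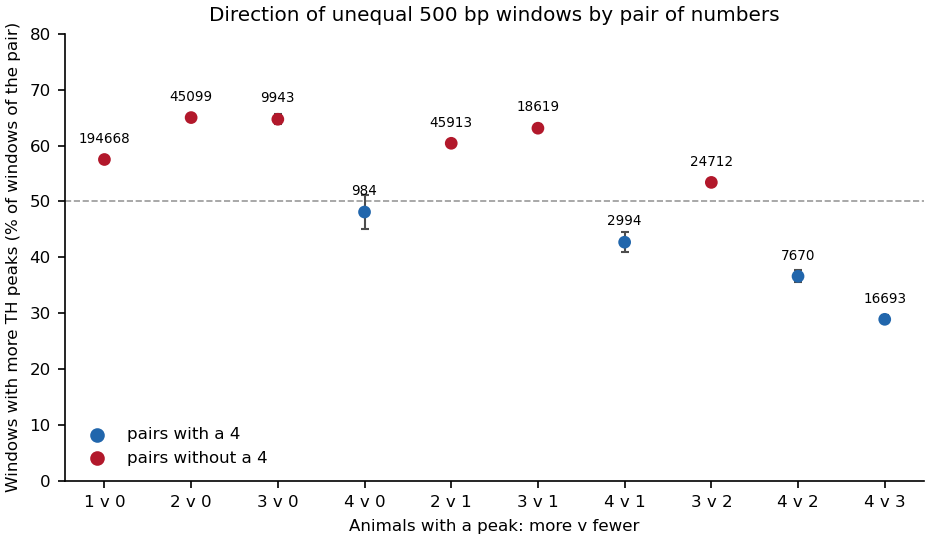
Percent of windows with more TH peaks among all unequal windows of each pair of numbers of animals, with the number of windows above each point and 95% Wilson intervals for counting error as bars. The 4 pairs with a 4 (blue) are below the 50% line, with 4 against 0 at 48.1% and 4 against 3 at 28.9%, and the 6 pairs without a 4 (red) are above it, up to 65.0%.

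Windows with peaks in all 4 animals of one group and none of the other were the largest difference the design allows, and they were rare. The 473 windows with TH peaks were 0.104% of the windows with a peak, and the 511 windows with TL peaks 0.112%. For such a window Fisher's exact test (two-sided, 4 animals in each group) gives p = 0.0286, the smallest value possible, and after Benjamini-Hochberg adjustment over 456176 windows it is 1.00. No single window passed. With 4 animals in each group a window could pass only if a large part of all windows had 4 against 0. The adjusted test therefore could not decide for any window. With at least 3 animals against 0, where the exact test gives p = 0.143 for 3 against 0, there were 6911 windows with TH peaks (1.51%) and 4016 with TL peaks (0.880%), a highland share of 63.2% (62.3–64.1%). Windows next to each other often lie under the same peaks, and these intervals do not cover the spread between animals.

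Differing windows were short and mostly isolated, as were windows with peaks in part of the animals of both groups. The 473 TH windows formed 358 runs of neighbouring windows with a mean of 1.32 windows, and 74.9% of the runs were single windows. The 511 TL windows formed 405 runs with a mean of 1.26 windows, and 79.3% were single. Where all 8 animals had a peak, 10915 windows formed 5528 runs with a mean of 1.97, of which 36.0% were single windows and 21.3% had 3 or more. The 19035 windows with 2 TH and 2 TL peaks formed runs with a mean of 1.45, of which 68.6% were single windows and 8.68% had 3 or more, so short runs were not particular to differing windows. In the differing sets 16 TH runs (4.47%) and 17 TL runs (4.2%) had 3 or more windows.

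The peaks over differing windows were of usual strength for their list and weaker than peaks shared by all animals. Over the 473 TH windows lay 1433 TH peaks with a median of 26 tags, a fold enrichment of 8.62 and a length of 1092 bp. Over windows with a peak in all 8 animals, TH peaks had medians of 40 tags, 9.06 and 1321 bp. The 1612 TL peaks over the 511 TL windows had medians of 26 tags, 7.91 and 1053 bp, against 40 tags, 8.39 and 1254 bp at the shared windows. The weakest of the 4 peaks of a window had a median of 20 tags on the TH side and 21 on the TL side, whereas at shared windows it had 30 tags in TH and 38 in TL. Both sides were thus alike in tags and length, and the difference between them in fold enrichment had the direction of that between the whole lists.

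The longest TH run was chr1:17600501-17603500 (Sscrofa10.2), with 6 windows under 4 TH peaks of 85, 115, 224 and 248 tags. These peaks were 3602 to 6208 bp long with a fold enrichment of 4.3 to 6.2, and the nearest TL peak was 6224 bp away. Over the same bases lay 2 YH peaks and 1 YL peak, so a lowland animal of the other breed also had a peak there. A second run of 6 windows, chr18:60913001-60916000, had peaks of 66, 102, 118 and 119 tags and no TL peak within 10910 bp. The run of 4 windows at chr3:11381501-11383500 was the farthest of the named runs from any TL peak (13693 bp), with 52, 87, 98 and 137 tags and with 0 YH peaks and 1 YL peak. Runs of 4 windows were also found at chr1:284501001-284503000 (58, 59, 87 and 114 tags) and at chr18:20763001-20765000 (40, 95, 95 and 128 tags). All 5 are broad peaks whose fold enrichment, 4.18 to 6.9, was below the median of the TH list.

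By summed tags, the strongest further TH runs were chr3:11559501-11560000, with 85, 171, 220 and 279 tags, and chr6:66601501-66603000, with 113, 162, 178 and 236 tags. Their distance to the nearest TL peak was only 36 bp and 311 bp. These windows thus lie close to at least 1 TL peak, and how many of the TL animals had a peak there was not counted.

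The longest TL runs had 5 windows each. At chr13:215930001-215932500 the 4 TL peaks had 78, 84, 98 and 101 tags and the nearest TH peak was 2776 bp away. At chr4:86944501-86947000 they had 82, 83, 88 and 100 tags, and a TH peak lay at 650 bp. The tags of the 4 animals were close to each other in both runs. A run of 4 windows at chr12:13856501-13858500 had peaks of 66, 74, 87 and 106 tags with the lowest fold enrichment of the named runs, 2.97 to 4.14. At chr11:863501-865000, 3 windows had peaks of 101, 114, 204 and 232 tags, 2 YH and 4 YL peaks, and no TH peak within 8827 bp. The run of 3 windows at chr18:10031001-10032500 had 108, 134, 136 and 154 tags and a TH peak at 496 bp. The further TL runs with the most tags, chr12:34430501-34431000 (138, 174, 202 and 204 tags) and chr6:30931501-30932000 (107, 123, 169 and 198 tags), were 50 bp and 6 bp from a TH peak.

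**Figure D3:**
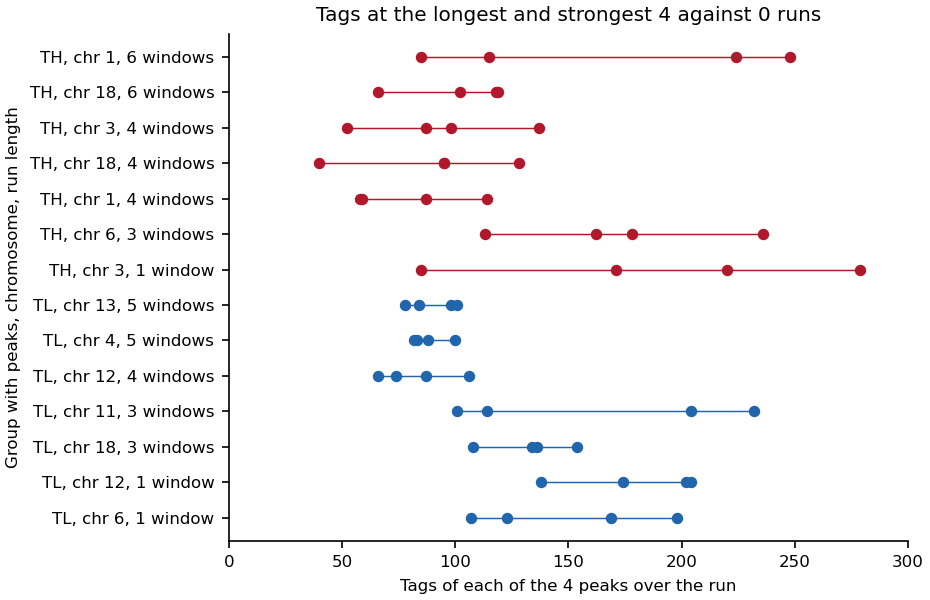
Tags of each of the 4 peaks over the 5 longest runs of 4 against 0 windows on each side and the 2 further runs with the most summed tags, with a line from the lowest to the highest peak of a run. TH runs (red) span 40 to 279 tags and TL runs (blue) 66 to 232, and the other Tibetan group had no peak over the counted base of these windows.

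Across all differing windows, proximity to a peak of the other group was common. On the TH side the median distance from the counted base to the nearest TL peak was 1808 bp, with 37.8% of the windows within 500 bp of one and 48.2% without one within 2000 bp. On the TL side the median distance to a TH peak was 2472 bp, with 33.1% within 500 bp and 54.0% without one within 2000 bp. Of the 473 and 511 windows, 48 (10.1%) and 67 (13.1%) had no peak of the other group within 10000 bp. The mean number of TL peaks at TH windows was 0.360 and 0.445 at 500 bp before and after the window. At 2500 bp it was 0.0869 before and 0.127 after, where TH itself had 0.161 and 0.121. Over all windows of the genome the means were 0.127 in TH and 0.112 in TL, so the peaks around the TH windows were near this level at 2500 bp. Around the TL windows the mean number of TL peaks at 2500 bp was 0.0548 before and 0.159 after the window, where TH had 0.102 and 0.137.

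The Yorkshire peaks had no part in the choice of the differing windows. At the TH windows the mean was 1.70 YH peaks and 2.03 YL peaks of 4. YL had more peaks than YH in 200 windows, fewer in 109 and as many in 164. At the TL windows the means were 2.04 in YH and 2.0 in YL, with more YL peaks in 179 windows, fewer in 183 and as many in 149. Over all windows with a Tibetan peak the means were 1.21 and 1.38, so that YL had more peaks in general, by 0.165 per window.

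The difference between the Yorkshire groups did not have the direction of the Tibetan one at TH windows. YH minus YL was −0.328 peaks per window there, further to the YL side than −0.201 at windows with 2 TH and 2 TL peaks. At the TL windows it was 0.037, with a standard error over windows of 0.055. This was further to the YH side than at windows with 2 TH and 2 TL peaks. The windows of a side share the same 8 Yorkshire animals, so no test of these means was made. In 30 of the 473 TH windows (6.34%) and 22 of the 511 TL windows (4.31%) neither Yorkshire group had a peak, and in 23 and 15 windows all 8 Yorkshire animals had one. These numbers were near those at windows with 2 TH and 2 TL peaks, of which 4.58% had no Yorkshire peak and 893 of 19035 had one in all 8 animals. A difference of 0 YH and 4 YL peaks was seen at 2 TH windows and 0 TL windows.

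**Figure D4:**
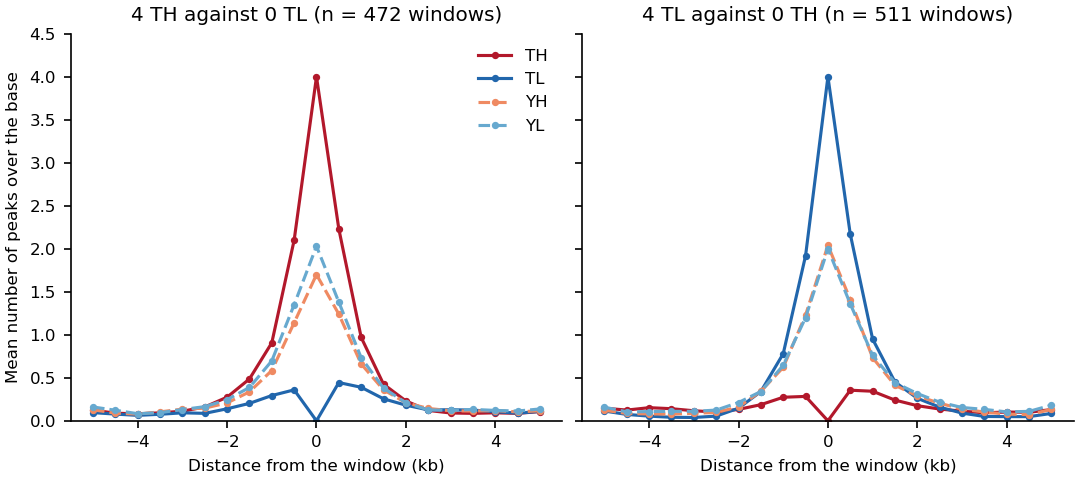
Mean number of peaks over the counted base of windows from 5 kb before to 5 kb after the 4 against 0 windows. TH windows are on the left (472 of the 473, as 1 lies too near the far end of a chromosome) and TL windows on the right (511). Solid lines are TH (red) and TL (blue) and dashed lines YH (orange) and YL (light blue). At the window the Yorkshire means are 1.70 and 2.03 on the left and 2.04 and 2.0 on the right, and all means are at or below 0.217 at 2500 bp on either side.

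Windows with at least 3 animals against 0 leaned to TH on 18 of 18 chromosomes, with highland shares from 57.9% on chromosome 11 to 68.9% on chromosome 12. Per 1000 windows with a peak, TH had from 13.6 such windows on chromosome 2 to 18.6 on chromosome 14, and TL from 6.83 on chromosome 12 to 11.4 on chromosome 11. The lean to TH on all 18 chromosomes also held with a common minimum of tags per M reads, with equal numbers of peaks and with the fold enrichment limit. With 4 animals against 0, there were more TH windows on 4 chromosomes (1, 2, 6 and 16), more TL windows on 13 and 43 of each on chromosome 14. Chromosome 1 had 56 TH and 30 TL windows, chromosome 3 had 25 and 48, and chromosome 17 had 6 and 17. The numbers per chromosome are small and moved with the setting. With the fold enrichment limit, TH windows were more frequent on 15 chromosomes and TL windows on 2. With a common minimum of tags per M reads, TH windows were more frequent on 1 and TL windows on 16. With equal numbers of peaks these were 3 and 15.

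**Figure D5:**
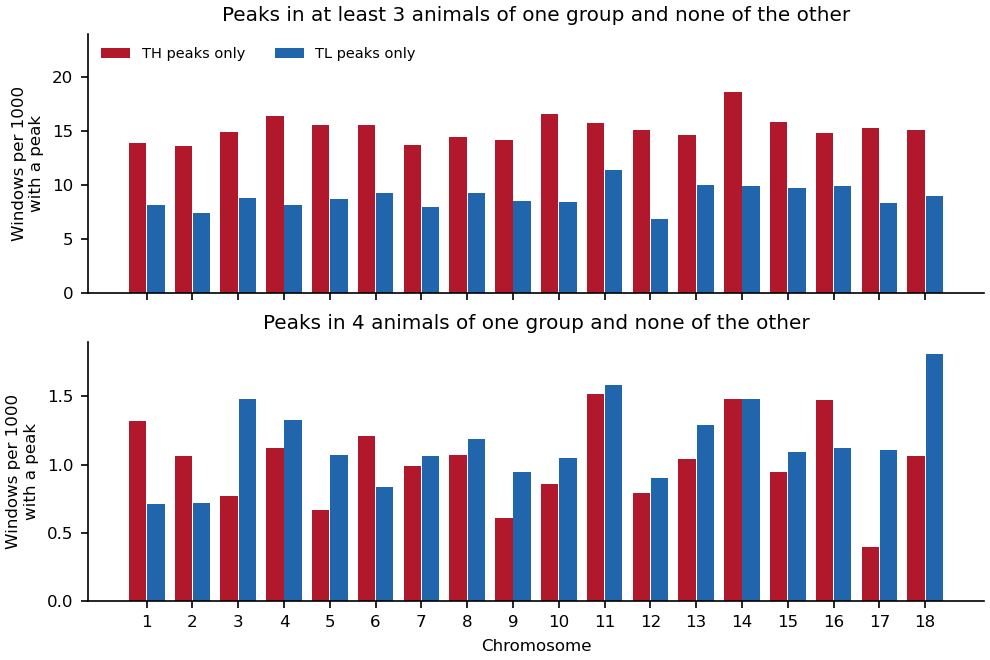
Windows with peaks in one Tibetan group only, per 1000 windows with a TH or TL peak, by chromosome, for at least 3 animals against 0 (top) and 4 against 0 (bottom). TH bars (red) are above TL bars (blue) on all 18 chromosomes in the top panel, and on 4 in the bottom panel, with 13 the other way and chromosome 14 equal.

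Peaks in general lay towards the chromosome ends, and windows shared by all animals did so most. The outer 10% at each end, together 20% of the length, held 40.1% of the windows with peaks in all 8 animals 32.2% of those with 2 TH and 2 TL peaks and 30.0% of all windows with a peak. They held 28.1% of the TH windows with 4 against 0 (24.3–32.3%) and 20.7% of the TL windows (17.5–24.5%). For at least 3 against 0 these shares were 30.7% and 26.9%. In the outer 5%, with 16.6% of all windows with a peak, lay 11.0% of the TH and 10.8% of the TL windows with 4 against 0. For at least 3 against 0 these shares were 16.1% (15.3–17.0%) and 13.3% (12.3–14.4%).

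On a larger scale the windows with 4 against 0 were spread thinly, with means of 0.193 TH and 0.208 TL windows per bin of 1 Mb. Of these bins, 87.0% held no TH window and 85.4% no TL window with 4 against 0, and the fullest bin had 6. These were 17 to 18 Mb of chromosome 1 and 60 to 61 Mb of chromosome 18 on the TH side, in each case made by the run of 6 windows named above, and the first Mb of chromosome 11 on the TL side. For at least 3 against 0, the means were 2.81 TH and 1.63 TL windows per bin, 24.2% and 36.3% of the bins held none, and up to 20 TH windows fell in a bin, on chromosomes 5 (106 to 107 Mb), 7 (130 to 131 Mb) and 16 (82 to 83 Mb), with 2, 0 and 3 TL windows in the same bins. The fullest TL bin, chromosome 11 from 24 to 25 Mb, had 14 TL and 6 TH windows. Bins were also unevenly filled by windows with 2 TH and 2 TL peaks (mean 7.75, up to 42) and with peaks in all 8 animals (mean 4.44, up to 46), and the 4 bins named for at least 3 against 0 held 277 to 422 windows with a peak against a mean of 186.

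Genes were examined at windows that the study's table of differentially methylated regions places in or near them. The part of that table used here lists windows called between breeds at the same elevation, from these same animals, so the genes are not independent evidence of a direction between TH and TL. Of 51 genes taken from lists of the study, 48 are on the chromosome that RefSeq gives for the gene, with 105 windows, and the other 3 were left out of the counts. No peak of either group lay over 59 of these windows, 22 had more TH peaks, 17 more TL peaks and 7 equal numbers. At least 3 animals against 0 were found at 1 window with TH peaks and 2 with TL peaks of the 46 that had a peak (2.17% and 4.35%), against 1.51% and 0.880% of all windows with a peak, so that these counts are too small to set the genes apart.

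The genes of lipid and energy metabolism (11 genes, 16 windows) had 4 windows with more TH peaks and 4 with more TL peaks. At the promoter of COX10, which takes part in making heme A for cytochrome c oxidase, there were 3 TH peaks (63, 75 and 146 tags) and 2 TL peaks (117 and 183 tags). An intron of BCKDHB, a subunit of the branched-chain keto acid dehydrogenase, had 3 TH peaks of 20, 39 and 43 tags and 4 TL peaks of 21, 21, 24 and 41 tags. Neither window separates the groups (exact p = 1.00 for each). At the promoter of PPARG, a nuclear receptor of fat storage, 1 TL peak of 13 tags was found.

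Among genes of oxygen, heme and redox (11 genes, 14 windows), 2 windows had more TH peaks, 3 more TL peaks and 9 no peak. The promoter of FOXO1, a transcription factor held back by insulin signaling, had 2 TH peaks (17 and 28 tags) against 4 TL peaks (18, 33, 36 and 49 tags) in the window chr11:15691501-15692000, and 3 against 4 in the next. Neither YH nor YL animals had a peak in either. The exact test gave p = 0.429 and p = 1.00. ERO1L and EPHX2, an oxidase of the endoplasmic reticulum and the soluble epoxide hydrolase, each had 1 TH peak (36 and 28 tags) and no TL peak over the counted base of a promoter window, with 3 TH peaks and 1 TL peak within 2000 bp of it in ERO1L.

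The genes of heart, muscle and vessel (15 genes, 38 windows) had more TH peaks in 8 windows and more TL peaks in 2, with 5 equal and 23 without a peak. These are 10 unequal windows, several of them in the same gene, beside 57.1% with more TH peaks among all unequal windows, and no test was made. An intron of PRKG1, the kinase that cGMP activates in smooth muscle, had 3 TH peaks (16, 18 and 28 tags) and 1 TL peak (15 tags) at one window (exact p = 0.486) and 2 against 3 at another. None of the 38 windows had 3 or more animals against 0.

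CHUK, the IKK alpha kinase of the NF-kB pathway, held the only 4 against 0 window among the 105 listed windows. The intron window chr14:120810001-120810500 had 4 TL peaks of 19, 23, 30 and 37 tags and 0 TH peaks (exact p = 0.0286, adjusted p = 1.00 over all windows), and chr14:120811001-120811500 had 3 TL peaks of 18, 30 and 48 tags and 0 TH peaks. No TH peak lay within 2000 bp of either. At the first window there were 3 YH peaks and 1 YL peak. SCCPDH, a dehydrogenase-like protein, had 1 TH peak of 17 tags and 4 TL peaks of 24, 30, 34 and 38 tags over neighbouring intron windows from chr10:21663001-21664000 (exact p = 0.143), where all 8 Yorkshire animals had a peak. At CAMK1D, a calcium-dependent kinase, the intron window chr10:64922501-64923000 had 3 TH peaks (16, 20 and 36 tags) and 0 TL peaks, with 1 peak each in YH and YL.

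The whole part of the table used here has 330 windows of 164 symbols, of which 137 had a TH or TL peak. At least 3 animals against 0 were found at 7 of these with TH peaks (5.11%) and 3 with TL peaks (2.19%), beside 1.51% and 0.880% of all windows with a peak. As these windows were chosen by the study on the same TH and TL animals, nothing is read from the excess. Besides CHUK and CAMK1D, these windows had 3 animals against 0, all with an exact p = 0.143. Over the counted base, TH peaks alone were found in introns of GNAQ, the alpha subunit of a G protein (26, 26 and 43 tags), PARK2, a ubiquitin ligase of mitophagy (36, 43 and 52 tags), UBAP1, a subunit of ESCRT-I (31, 51 and 60 tags), and SPATA17 (14, 16 and 24 tags). They were also found downstream of TNFSF10, which encodes the death ligand TRAIL (14, 16 and 17 tags), and at the promoter listed for ICA (23, 30 and 75 tags), a symbol whose chromosome could not be checked. TL peaks alone were found over the counted base at the promoter of LOC100512313 (15, 17 and 31 tags), although 2 TH peaks lay within 2000 bp. Likewise, 1 TL peak each lay within 2000 bp of the GNAQ and TNFSF10 windows. The SPATA17 and TNFSF10 peaks were weak, all below the median of 27 tags of the TH list, and the PARK2 and UBAP1 peaks were all above it. The UBAP1 window had peaks in all 8 Yorkshire animals, whereas the SPATA17 and TNFSF10 windows had none.

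Over longer stretches the balance of windows varied from gene to gene. For 8 genes the stretch between the first and last listed intron window was examined, a choice made after seeing the data. In ENG, the endothelial co-receptor of TGF-beta, 8 windows over 27.5 kb had more TH peaks, 0 more TL peaks and 5 equal numbers. In LIPC, the hepatic lipase, 29 windows over 186 kb had more TH peaks and 8 more TL peaks. IGF1R had 14 and 6 over 146 kb, PRKG1 22 and 15 over 446 kb, and SMYD3, a lysine methyltransferase, 109 and 80 over 619 kb. CAMK1D had 29 and 23 over 160 kb. The direction was the other way in NR5A2, a nuclear receptor, with 17 windows with more TH and 22 with more TL peaks over 104 kb, and BCKDHB had 14 and 15 over 272 kb. Over all unequal windows of the genome 57.1% had more TH peaks, and no test was made per gene, since neighbouring windows share peaks.

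Within these stretches, windows of both directions occurred in the same gene. Of the 44 LIPC windows with a peak, chr1:125475501-125476000 had 0 TH and 4 TL peaks, with a TH peak at 22 bp, and 2 others had 3 TH and 0 TL peaks. Of 222 in SMYD3, 4 had 3 TH and 0 TL peaks and none the reverse, near the 1.51% of all windows with a peak. In NR5A2, 3 neighbouring windows of 43, chr10:27372501-27374000, had 0 TH and 3 TL peaks. Of 63 in CAMK1D, 2 had 3 TH and 0 TL peaks and 1 had 0 and 3. These numbers are too small to be set against the background. At the second of the TH windows of CAMK1D, chr10:64961501-64962000, all 8 Yorkshire animals had a peak, so that of the 4 groups only TL had none there.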

How the data were processed

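Reads of the MeDIP libraries were cleaned by the authors with FASTX, aligned to the pig genome (Sscrofa10.2) with Bowtie, and searched for peaks with MACS. They deposited 1 list of peaks per group, in which the tags are raw counts of reads per peak, the fold enrichment is a ratio over the local background, and positions and lengths are in bp. For 100907 TH peaks the end position was read from the field that joins start and end. Each list was read as the joined peaks of 4 unnamed animals, with at most 4 peaks over a base.

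Peaks on chromosomes 1 to 18 were used without a filter. An overlap was at least 1 bp. Peaks over base 250 of windows of 500 bp, counted from the first base of a chromosome, were counted per group, and each window was tested by a two-sided Fisher's exact test, with p-values adjusted (Benjamini-Hochberg) over all windows with a peak. Shares have 95% Wilson intervals, for counting error only. The largest peak end served as the chromosome length. Reads per animal, 12.8 to 16.9 M, are the uniquely mapped reads given by the study. Since the lists used hold no animal names, no value of the peaks has a spread between animals. The counting was tested on simulated data. Alternatives varied the window grid, the rule of overlap, minimum tags, equal list sizes, the fold enrichment and chromosome X.

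The regions named are the 5 longest runs on each side (ties by summed tags) and the 2 further runs with the highest summed tags. The genes named come from the study's functional lists and its list of key genes, not all of which it gives for TH vs. TL, and have a window in the part of its table used here. They also include any gene of that part with 3 or 4 animals against 0. Comparisons, gene lists and regions were chosen with earlier results of these data known. The result at 1 gene is not reported here. Gene symbols were matched to RefSeq by chromosome only. The genomic element of a window is as listed in that table. Read quality per library, sequences and the annotation of other windows were not analysed here. The software was SciPy 1.17.1, pandas 2.3.3 and NumPy 2.4.6 under Python 3.11.15, with plots by Matplotlib 3.10.9.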

Additional observations from a re-analysis of the deposited data

Results flagged for a closer look

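Opposite directions in the breeds were found at 2 windows, where all 4 animals of a group had a peak and none of the other in both elevation comparisons. The first, chr6:126395501-126396000, had 4 TH peaks (14, 15, 17 and 31 tags) and 0 TL peaks, but 0 YH peaks and 4 YL peaks (19, 22, 26 and 31 tags). The second, chr16:13248001-13248500, likewise had 4 TH peaks (13, 16, 20 and 20 tags) and 0 TL peaks, but 0 YH and 4 YL peaks (12, 18, 22 and 23 tags). Such 0 against 4 windows between YH and YL were 2 of the 473 TH windows (0.423%), 78 of the 19035 windows with 2 TH and 2 TL peaks (0.410%) and 858 of all 456176 windows with a peak (0.188%), and 6 of the 10915 windows with peaks in all 8 Tibetan animals (0.0550%). The difference between the breeds was not tested.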

How the results depend on the processing

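Of 50 alternative values, 30 stayed within the limits set for them and 20 moved. The 984 windows with 4 animals against 0 became 1514 when any overlap with the window counted, 529 when a peak had to cover the whole window, 430 with fold enrichment at least the common median, 504 without a peak of the other group within 2000 bp and 10927 with at least 3 animals. Their highland share, 48.1%, was 39.0% with a common minimum of tags per M reads (13 tags in TL, 15 in TH), 40.5% with equal numbers of peaks and 57.4% with the fold enrichment limit, so its side of 50% is not settled by these lists. For at least 3 against 0 the share, 63.2%, was 62.0% with any overlap, 65.4% with whole windows, 58.3% with the minimum of tags, 58.8% with equal numbers and 72.3% with the fold enrichment limit. Among peaks without overlap it was 56.2% with an overlap of 50% of both peaks, 51.5% with the minimum of tags and with equal numbers, 60.6% with the fold enrichment limit, 55.7% with merged peaks and 57.8% with chromosome X. With at least 3 against 0, 57.3% of the TH windows had no TL peak within 2000 bp, against 48.2%. The cause of these changes was not tested. No paired analysis was possible because the peaks carry no animal names, and leaving out each animal in turn could not be run for the same reason. The ratio of shared to covered bases stayed between 0.332 and 0.451, the lowest with the fold enrichment limit, which was added for it after seeing the data.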
